A study of Mus musculus with 9 samples.

Results

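The genes described here are 9 myeloid lineage genes, 7 encoding transcription factors (Spi1, Cebpa, Cebpb, Batf3, Id2, Zbtb46 and Maf) and 2 encoding products used as myeloid markers (Lyz2 and Adgre1). They were chosen by name, and all 9 were found among the 21959 genes of the deposited table. RNA was sequenced from DC2.4, an established mouse dendritic cell line derived from bone marrow, in 9 libraries. The libraries form the groups OMVSSDC, ZJDC and PBSDC, with 3 in each. By its design text, the study treated these cells with engineered vesicles and looked at immune-related expression. The meaning of OMVSS and ZJ, the group that received those vesicles, the dose and the duration are absent from the labels. Since PBS usually stands for phosphate-buffered saline, PBSDC was used as the control. No label ties replicates to separate cultures, so p-values measure only the spread between these samples, which may be technical.

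Myeloid identity is set by a small number of transcription factors that act together. PU.1, the product of Spi1, and the C/EBP factors open myeloid enhancers in progenitors and in mature phagocytes. BATF3, ID2 and ZBTB46 are known for their part in the classical dendritic cell lineage, and c-MAF, the product of Maf, is abundant in many tissue macrophages. The products of Lyz2 and Adgre1, lysozyme M and F4/80, are widely used to mark mouse macrophages.

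Library totals ranged from 12784931 to 18388959 counts. Levels are CPM, a count divided by the library total at a fixed scale, adjusted by the trimmed mean of M-values (TMM) so that a few very abundant genes do not shift all the others. With 0 counts, the upper limit was 3 counts, or 0.161 to 0.235 CPM depending on the library, for counting error only. OMVSSDC replicates 1 and 2 differed from each other by a chi-square per degree of freedom of 1.89 over genes, and from OMVSSDC replicate 3 by 62.4 and 65.1. Libraries within ZJDC differed by 2.57 to 9.01 and within PBSDC by 2.82 to 3.97. For some genes, not for every one that moved, values are also given for OMVSSDC replicate 3 alone against the other groups. That fit used the 7 libraries left after removing OMVSSDC replicates 1 and 2. OMVSSDC then has no spread of its own, and its library is assumed to vary like those of the other groups.

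Per unit of gene length the 9 genes covered a wide range of levels. In FPKM as deposited, a level divided by gene length and library total, Lyz2 was the most abundant of them, with 240.5 ± 31.2 in OMVSSDC, 207 ± 5.71 in ZJDC and 614 ± 10.2 in PBSDC (SD, n = 3 in each group). By mean FPKM it stood at rank 142 of 15488 genes with a level above 0 in OMVSSDC, 140 of 15651 in ZJDC and 24 of 15683 in PBSDC. Adgre1 came next in OMVSSDC (185 FPKM) and ZJDC (146 FPKM), while in PBSDC Spi1 (149.7 FPKM) lay between Lyz2 and Adgre1 (83.4 FPKM). Zbtb46 was the least abundant in each group, with 0.990, 0.785 and 0.384 FPKM in OMVSSDC, ZJDC and PBSDC. Batf3 was the next lowest, with 4.11, 2.002 and 1.78 FPKM in the same groups.

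**Figure D1:**
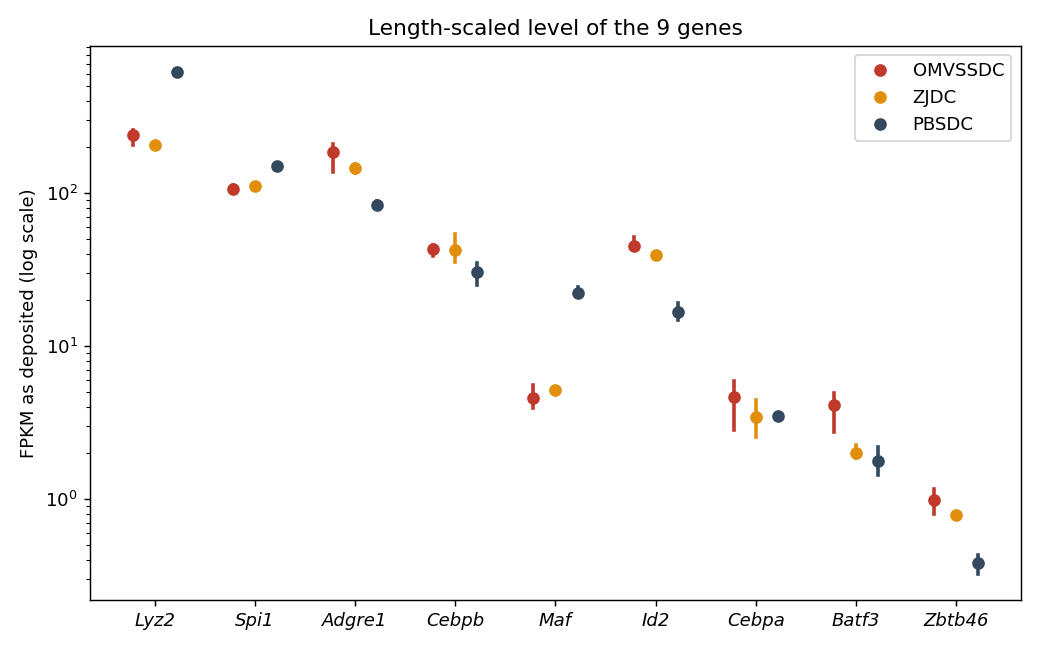
FPKM as deposited (log axis) of the 9 genes, ordered by their level in PBSDC; points are group means and lines run from the lowest to the highest of the 3 libraries of a group. Maf stood at 4.59 FPKM in OMVSSDC and 5.14 in ZJDC, against 22.1 in PBSDC.

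Some neighbours in that order could not be separated. In OMVSSDC the libraries overlapped between Lyz2 and Adgre1, between Id2 (45.3 FPKM) and Cebpb (43.1 FPKM), and among Cebpa (4.65 FPKM), Maf (4.59 FPKM) and Batf3. In ZJDC they overlapped between Cebpb (42.2 FPKM) and Id2 (39.4 FPKM). In PBSDC no 2 neighbours overlapped, and Maf (22.1 FPKM) lay above Id2 (16.7 FPKM), the reverse of both other groups.

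Spi1 encodes PU.1, an ETS family factor required for macrophages, dendritic cells and B cells. The table places it on chromosome 2 at 90912735 to 90946101, plus strand (no source used here names the build). Spi1 had 268, 251 and 302 CPM in OMVSSDC replicates 1, 2 and 3, and 309.5, 300.5 and 287 CPM in ZJDC, against 422, 427 and 416 CPM in PBSDC. Every OMVSSDC and ZJDC library lay below every PBSDC library. Spi1 fell by 0.62 on the log2 scale in OMVSSDC (SE 0.0738, adjusted p = 4.38e-05) and by 0.50 in ZJDC (SE 0.0737, adjusted p = 0.000280), by edgeR's quasi-likelihood test with Benjamini-Hochberg adjustment over all 11568 genes tested. In whole cultures, fewer cells of a type and less RNA per cell cannot be told apart.

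Cebpa and Cebpb encode C/EBP alpha and C/EBP beta. The first drives the step of progenitors to the granulocyte and monocyte lineage and the second is induced in inflammation. Cebpa, on chromosome 7 at 34818718 to 34821353, plus strand, had 14.7, 12.8 and 7.37 CPM in OMVSSDC and 6.82, 8.69 and 11.5 CPM in ZJDC, against 9.90, 9.60 and 9.34 CPM in PBSDC. Libraries of OMVSSDC and of ZJDC lay on both sides of PBSDC. The log2 fold change was 0.28 in OMVSSDC (95% interval -0.28 to 0.83, adjusted p = 0.355) and -0.09 in ZJDC (-0.65 to 0.47, adjusted p = 0.781). OMVSSDC replicates 1 and 2 were above all PBSDC libraries and replicate 3 below them, and without replicate 3 the value was 0.51 (adjusted p = 0.00491). It was -0.39 within the 7 libraries (adjusted p = 0.143).

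Cebpb lies on chromosome 2 at 167530835 to 167532338, plus strand. It had 63.4, 64.8 and 57.6 CPM in OMVSSDC and 53.4, 56.9 and 79.9 CPM in ZJDC, against 49.0, 39.6 and 54.5 CPM in PBSDC. OMVSSDC did not overlap PBSDC, while the lowest ZJDC library lay under the highest PBSDC library. The log2 fold change in OMVSSDC was 0.38 (SE 0.158, adjusted p = 0.0593), and it passed in 5 of 18 alternative settings. Those were library size alone (0.51, adjusted p = 0.0235), the stricter filter (0.0481), only the groups compared (0.0374), and the fits without PBSDC replicate 3 (0.0447) or ZJDC replicate 3 (0.0207). In ZJDC Cebpb rose by 0.41 (SE 0.158, adjusted p = 0.0479), and 13 of 18 alternative settings ended that call, with adjusted p up to 0.219, the value without ZJDC replicate 3, where the log2 fold change was 0.21. The call was also lost without OMVSSDC replicates 1, 2 or 3 (0.0564, 0.0589 and 0.106), PBSDC replicates 1 or 2 (0.0948 and 0.183) or ZJDC replicate 2 (0.0514). Cebpb lies within the span of Peds1 on the opposite strand. No source used here says whether counting used strand, and overlap of exons was not examined, so reads of the 2 genes may not be separable. Peds1 itself had a log2 fold change of 0.35 in OMVSSDC (adjusted p = 0.00380) and 0.21 in ZJDC (adjusted p = 0.0472).

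Batf3 encodes a basic leucine zipper factor that pairs with JUN proteins and is required for the cross-presenting type of classical dendritic cell. In the table it lies on chromosome 1 at 190830044 to 190841142, plus strand. The RefSeq window before its transcription start, build GRCm38.p6, plus strand, chr1:191098164-191098413, is shown because it was the one window of a member with a match to the PU.1 core GAGGAA, in capitals.
Batf3: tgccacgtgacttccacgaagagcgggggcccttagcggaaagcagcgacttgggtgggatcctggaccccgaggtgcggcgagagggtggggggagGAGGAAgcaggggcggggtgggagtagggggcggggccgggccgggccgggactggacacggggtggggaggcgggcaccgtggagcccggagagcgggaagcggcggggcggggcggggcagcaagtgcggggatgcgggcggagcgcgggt

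That match lies at -153 to -148 from the start, and 23.3% of 32851 RefSeq windows of 250 bases hold one. Windows were found for 6 of the 9 genes (Batf3, Id2, Zbtb46, Cebpa, Cebpb and Lyz2). Both strands were searched for GAGGAA, the C/EBP motif TTGCNNAA (9.56% of windows), the AP-1 motif TGANTCA (6.75%), the palindromic MAF recognition element, which contains the AP-1 motif (0.00609%), and the interferon-stimulated response element (2.98%). The other match was TGANTCA in the Zbtb46 window, at -61 to -55 from the start. The windows of Batf3, Id2 and Zbtb46 lie inside the genes as GENCODE M21 draws them, downstream of their outermost start. That of Zbtb46, chr2:181424389-181424638, minus strand, lies far inside a gene whose outermost start is at 181459426. A match is a run of letters, and binding was not measured.

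Batf3 had 103, 125 and 64 counts in OMVSSDC (7.43, 6.98 and 4.33 CPM), 53, 39 and 66 counts in ZJDC (2.99, 3.05 and 3.54 CPM), and 62, 35 and 39 counts in PBSDC (3.66, 2.40 and 2.85 CPM). OMVSSDC lay above PBSDC in each library, replicate 3 by the least, and ZJDC overlapped PBSDC. Batf3 rose by 1.06 on the log2 scale in OMVSSDC (SE 0.235, adjusted p = 0.00271). Within the 7 libraries the value was 0.53 and did not pass (adjusted p = 0.118). In ZJDC it was 0.10 (95% interval -0.45 to 0.66, adjusted p = 0.750).

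Id2 encodes an inhibitor of E protein factors that favours classical over plasmacytoid dendritic cells. It lies on chromosome 12 at 25143798 to 25147139, minus strand. Id2 had 96.8, 97.0 and 124 CPM in OMVSSDC and 99.5, 92.1 and 96.7 CPM in ZJDC, against 37.6, 41.2 and 48.8 CPM in PBSDC. The lowest OMVSSDC or ZJDC library was well above the highest PBSDC library. Id2 rose by 1.32 in OMVSSDC (SE 0.120, adjusted p = 7.00e-06) and by 1.18 in ZJDC (SE 0.120, adjusted p = 2.20e-05), by edgeR.

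Zbtb46 encodes a zinc finger repressor whose expression separates classical dendritic cells from other mononuclear phagocytes. It lies on chromosome 2 at 181029555 to 181101219, minus strand. Zbtb46 had 111, 167 and 100 counts in OMVSSDC (8.003, 9.33 and 6.76 CPM) and 113, 88 and 126 counts in ZJDC (6.37, 6.89 and 6.76 CPM), against 65, 52 and 39 counts in PBSDC (3.83, 3.56 and 2.85 CPM). All OMVSSDC and ZJDC libraries lay above PBSDC. It rose by 1.23 in OMVSSDC (SE 0.167, adjusted p = 0.000110) and by 0.96 in ZJDC (SE 0.169, adjusted p = 0.000845). Its level stayed low per unit of length, at rank 10036 of 15488 in OMVSSDC, 10128 of 15651 in ZJDC and 10537 of 15683 in PBSDC.

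Maf encodes c-MAF, a large basic leucine zipper factor that activates Il10 and macrophage genes. It lies on chromosome 8 at 116409681 to 116434533, minus strand. Maf had 30.3, 33.2 and 45.5 CPM in OMVSSDC and 43.2, 43.0 and 40.7 CPM in ZJDC, against 184, 179 and 208 CPM in PBSDC. The highest OMVSSDC or ZJDC library, OMVSSDC replicate 3, stood far below the lowest PBSDC library. Maf fell by 2.39 on the log2 scale in OMVSSDC (SE 0.136, adjusted p = 3.12e-07) and by 2.17 in ZJDC (SE 0.134, adjusted p = 8.77e-07), which is 5.23-fold and 4.49-fold lower. Among the 11568 genes tested these were the 307th and 256th largest changes in either direction.

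Lyz2 encodes lysozyme M, which cleaves bacterial peptidoglycan. The table places it on chromosome 10 at 117113236 to 117118226, minus strand, beside Lyz1, a close copy known for its expression in Paneth cells of the mouse gut. The RefSeq bases before both starts, build GRCm38.p6, minus strand, chr10:117282273-117282402 for Lyz2 and chr10:117292869-117292998 for Lyz1, partly inside the GENCODE M21 gene for Lyz2, are shown because the genes are near copies yet were counted at very different levels. Capitals mark the letters that differ.
Lyz2: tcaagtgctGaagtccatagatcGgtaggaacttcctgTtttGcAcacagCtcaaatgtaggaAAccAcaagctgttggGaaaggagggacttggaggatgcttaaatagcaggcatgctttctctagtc
Lyz1: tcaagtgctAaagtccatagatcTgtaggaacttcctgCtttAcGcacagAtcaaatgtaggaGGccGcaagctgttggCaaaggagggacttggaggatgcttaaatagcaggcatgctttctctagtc

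Of these 130 bases 120 were the same (92.3%), including the last 50 before the start. Lyz1 had at most 2 counts in any library. Lyz2 had 4415, 5733 and 3959 counts in OMVSSDC and 4805, 3441 and 5175 counts in ZJDC, against 14287, 12558 and 11403 counts in PBSDC. No source used here says how reads matching both genes were assigned. Antisense genes of GENCODE M21 overlap the spans of Cebpa (Gm45091) and Maf (Gm15655). Without strand their reads may not be separable from those of Cebpa and Maf, and overlap of exons was not examined.

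In scaled levels Lyz2 stood at 318, 320.2 and 268 CPM in OMVSSDC and 271, 269 and 278 CPM in ZJDC, against 842, 861 and 832 CPM in PBSDC. All OMVSSDC and ZJDC libraries lay below PBSDC, and OMVSSDC overlapped ZJDC through its replicate 3. Lyz2 fell by 1.48 in OMVSSDC (SE 0.0750, adjusted p = 1.51e-07) and by 1.63 in ZJDC (SE 0.0753, adjusted p = 1.80e-07), which is 2.80-fold and 3.10-fold lower.

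Adgre1 encodes F4/80, an adhesion G protein-coupled receptor of mouse macrophages. It lies on chromosome 17 at 57665691 to 57790527, plus strand. Adgre1 had 638, 628 and 442 CPM in OMVSSDC and 441, 479.8 and 495 CPM in ZJDC, against 272, 277 and 297 CPM in PBSDC. Each OMVSSDC and ZJDC library lay above PBSDC, and OMVSSDC replicate 3 lay within the ZJDC range. It rose by 1.01 in OMVSSDC (SE 0.126, adjusted p = 6.05e-05) and by 0.74 in ZJDC (SE 0.125, adjusted p = 0.000644). Within the 7 libraries the OMVSSDC value was 0.64 (adjusted p = 9.44e-10). The 2 macrophage markers thus moved in opposite directions in both comparisons.

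**Figure D2:**
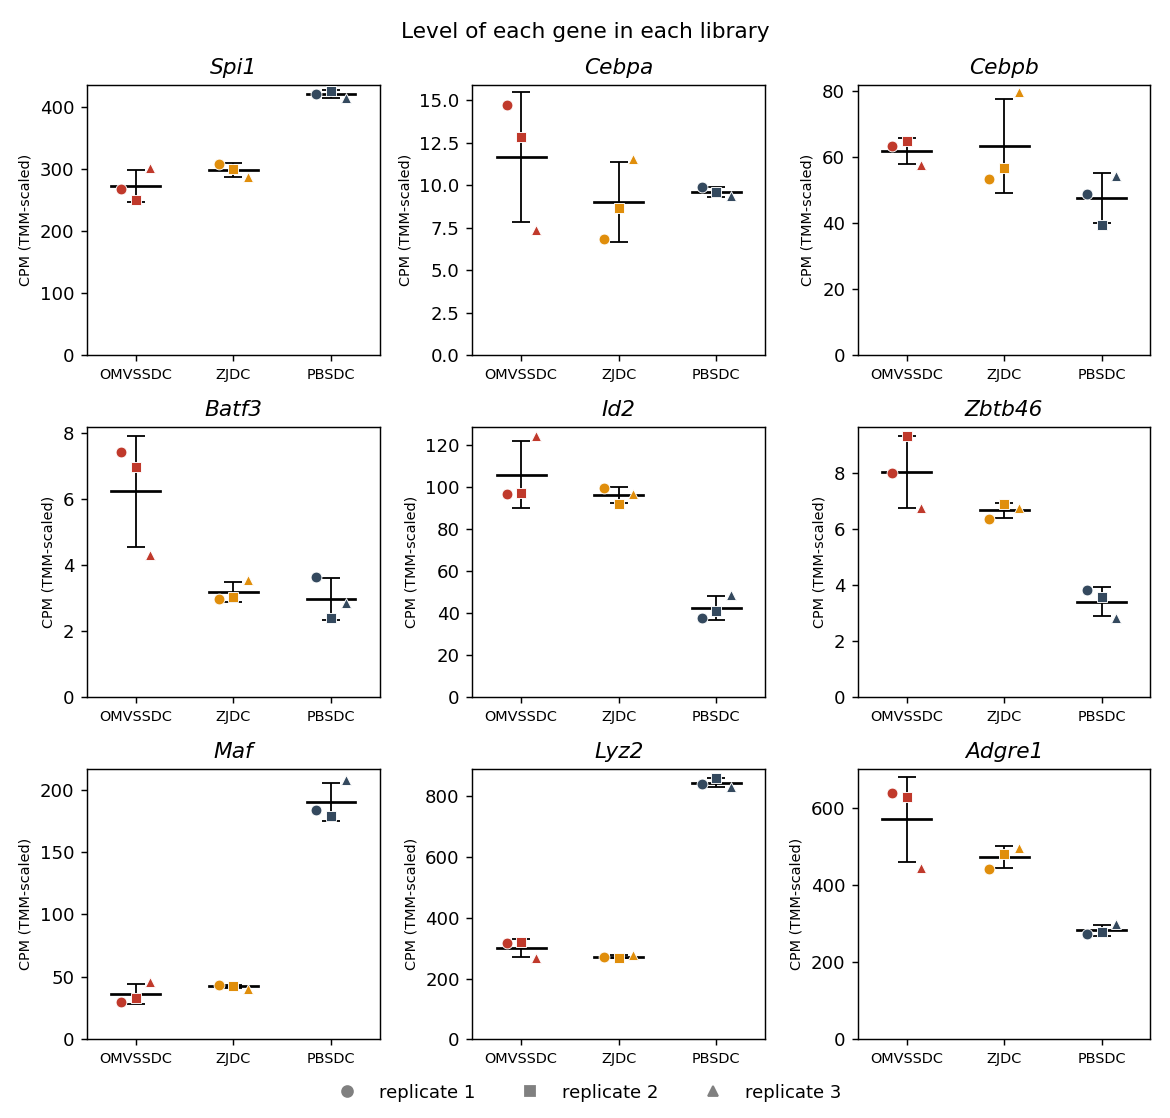
TMM-scaled CPM of the 9 genes in each of the 9 libraries; marker shapes give the replicate, horizontal lines the group mean and bars 1 SD (n = 3 libraries). Spi1, Maf and Lyz2 lie lower in OMVSSDC and ZJDC than in PBSDC, whereas Id2, Zbtb46 and Adgre1 lie higher. OMVSSDC replicate 3 stands apart from replicates 1 and 2 in Batf3, Cebpa and Adgre1, and also in Id2, Lyz2 and Maf.

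In OMVSSDC against PBSDC, 4 of the 9 genes rose (Batf3, Id2, Zbtb46 and Adgre1) and 3 fell (Spi1, Maf and Lyz2), beside 63.6% of all tested genes that passed in either direction, 33.4% higher and 30.2% lower. Libraries did not overlap for 8 of the 9, beside 65.7% of all genes. In ZJDC against PBSDC, 4 rose (Id2, Zbtb46, Adgre1 and Cebpb) and 3 fell (Spi1, Maf and Lyz2), beside 54.7% of all genes, 27.6% higher and 27.1% lower. Libraries did not overlap for 6 of the 9, beside 72.2%. Most genes at large passed in each comparison taken alone, so these counts are not particular to the 9. The median log2 fold change was 0.38 over the 9 genes and 0.05 over all tested genes in OMVSSDC, and 0.10 and 0.01 in ZJDC. The median size of the change, without its sign, was 1.06 over the 9 and 0.48 over all in OMVSSDC, and 0.74 and 0.39 in ZJDC. Both comparisons share the PBSDC libraries.

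**Figure D3:**
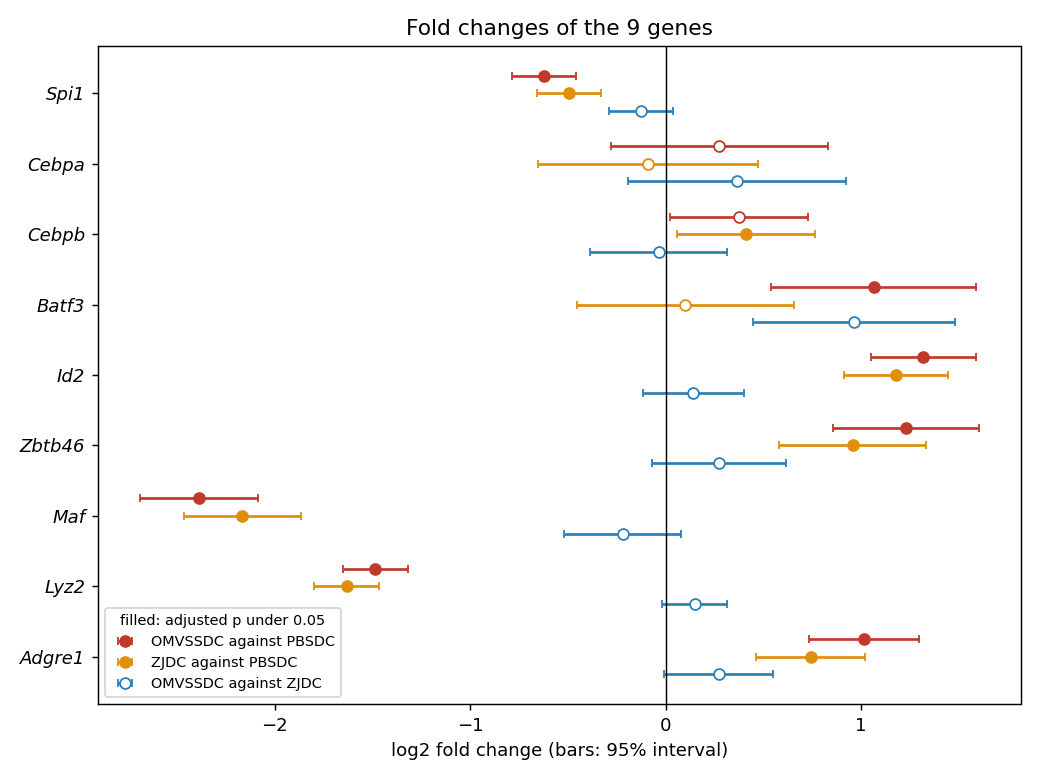
Log2 fold changes of the 9 genes in the 3 comparisons with 95% intervals; filled points have an adjusted p under 0.05. Maf lies at -2.39 and -2.17 and Lyz2 at -1.48 and -1.63 against PBSDC, and the points for OMVSSDC against ZJDC are all open.

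The direct comparison of OMVSSDC with ZJDC asks whether the 2 groups differ from each other. None of the 9 genes passed by edgeR (0 of 9), beside 1.95% of all tested genes, 0.856% higher and 1.10% lower. At an unadjusted p under 0.05 there was 1, Batf3, and DESeq2 called 1 and limma-voom 0. Batf3 had a log2 fold change of 0.96 (95% interval 0.45 to 1.48, adjusted p = 0.0562), and its libraries did not overlap, with 4.33 to 7.43 CPM in OMVSSDC and 2.99 to 3.54 CPM in ZJDC. It was the 1 gene of the 9 without overlap, beside 24.0% of all genes. The value was 0.42 (adjusted p = 0.524) within the 7 libraries.

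For the other 8 genes the intervals bound the difference between OMVSSDC and ZJDC. They ran from -0.29 to 0.04 for Spi1, from -0.02 to 0.31 for Lyz2, from -0.01 to 0.55 for Adgre1 and from -0.12 to 0.40 for Id2. Those of Maf (-0.52 to 0.08), Zbtb46 (-0.07 to 0.62) and Cebpb (-0.39 to 0.31) were wider, and that of Cebpa reached 0.92. OMVSSDC replicate 3 decided these results. In CPM it lay within the ZJDC range for Spi1, Zbtb46, Cebpa, Cebpb and Adgre1, and outside that range for Batf3, Id2, Maf and Lyz2. Without OMVSSDC replicate 3, 5 of the 9 genes were higher (Batf3, Zbtb46, Cebpa, Lyz2 and Adgre1) and 2 lower (Spi1 and Maf) in OMVSSDC. Their log2 fold changes ran from -0.41 for Maf to 1.16 for Batf3. In that fit 3243 genes at large were higher and 3296 lower, so these counts are not particular to the 9. Within the 7 libraries Id2 alone passed, with 0.36 (adjusted p = 0.0283). The split of all called genes was 43.8% higher, and 55.8% with library size alone as the scaling.

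Close relatives of the 7 factors moved in both directions. Of 18 relatives, 13 were tested. In OMVSSDC 6 rose and 3 fell, with a median log2 fold change of 0.47, and in ZJDC 5 rose and 4 fell, with a median of 0.35. The share called was 69.2% in each comparison, beside 63.6% of all tested genes in OMVSSDC and 54.7% in ZJDC. Genes at large also moved in both directions, so these counts are not particular to the relatives. Maff, a small MAF protein without an activation domain, rose by 2.02 in OMVSSDC and 1.94 in ZJDC.

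Among C/EBP relatives, Cebpd, the inflammation-linked C/EBP delta, fell by 1.18 in OMVSSDC and by 0.91 in ZJDC. It averaged 19.1 ± 0.689 and 22.9 ± 4.49 CPM in them, against 43.1 ± 1.61 CPM in PBSDC. Cebpg, a C/EBP that lacks an activation domain, rose by 0.47 and 0.38. Cebpe, a factor of late granulocyte development, had log2 fold changes of 0.23 (adjusted p = 0.349) and -0.35 (adjusted p = 0.186). Of the other inhibitors of E proteins, Id1 fell by 1.52 in OMVSSDC and fell by 2.103 in ZJDC, while Id2 rose. Id3 fell by 0.71 in ZJDC (adjusted p = 0.0106) and had -0.09 in OMVSSDC (adjusted p = 0.679), or -0.67 within the 7 libraries (adjusted p = 0.000330).

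The nearest relatives of BATF3 and PU.1 were scarce. Batf2 had 5.63, 6.26 and 5.20 CPM in OMVSSDC, ZJDC and PBSDC and did not pass (adjusted p = 0.586 and 0.200 against PBSDC). Batf, at 3 to 16 counts a library, and Spic, at 0 to 10, were below the filter on low counts. Spib, the lymphoid and plasmacytoid relative of PU.1, had 15 to 22 counts in OMVSSDC and 12 to 37 in ZJDC, against 0 to 8 in PBSDC. It rose by 1.93 in OMVSSDC (adjusted p = 0.0233) and 2.23 in ZJDC (adjusted p = 0.0111), the first lost if OMVSSDC replicate 1 was left out (0.0673) and in the 7 libraries (0.0723). Without PBSDC replicate 1 the OMVSSDC value was 1.27.

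Of 33 other dendritic cell and myeloid transcription factors, 27 were tested. In OMVSSDC 9 rose and 7 fell (15 rose with library size alone), with a median of 0.15, and in ZJDC 12 rose and 6 fell, with a median of 0.15. The share called was 59.3% in OMVSSDC and 66.7% in ZJDC, beside 63.6% and 54.7% of all tested genes. Relb, the NF-kB subunit needed by some dendritic cells, rose by 1.59 in OMVSSDC (1.04 in the 7 libraries) and 1.16 in ZJDC. Klf4, a monocyte factor, rose by 1.29 and 1.18, Nfil3, which is needed for the BATF3-dependent lineage, by 0.95 and 0.74, and Bcl6 by 0.91 and 0.61. Bcl11a, a factor of lymphoid and plasmacytoid cells, rose by 2.39 and 2.23, with 16.8 and 14.98 CPM in OMVSSDC and ZJDC, against 3.20 CPM in PBSDC. The orphan nuclear receptor gene Nr4a1 rose by 1.57 and 1.51. Ikzf1, which encodes IKAROS, fell by 0.91 and 0.68.

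Irf8, the partner factor of PU.1 and BATF3 in dendritic cells, was abundant and did not pass. It had 188 ± 16.4 CPM in OMVSSDC and 163 ± 8.70 CPM in ZJDC, against 169 ± 7.95 CPM in PBSDC, with log2 fold changes of 0.16 (95% interval -0.02 to 0.33, adjusted p = 0.103) and -0.05 (-0.22 to 0.13, adjusted p = 0.621). Irf8 passed in OMVSSDC without OMVSSDC replicate 3 (0.23, adjusted p = 0.000256) and with library size alone (0.29, adjusted p = 0.0172). Irf4 was near 1 CPM in each group and did not pass (adjusted p = 0.811 and 0.865), and Mycl had 0 counts in all 9 libraries. Runx1, Runx3 and Tcf4 did not pass in either comparison (adjusted p from 0.192 to 0.854). Without OMVSSDC replicate 3, Tcf4 had -0.17 in OMVSSDC (adjusted p = 0.0138), and in the 7 libraries 0.23. Zeb2 rose in ZJDC by 0.57 (adjusted p = 0.0191) and had 0.15 in OMVSSDC (adjusted p = 0.476), where its sign turned to -0.15 without OMVSSDC replicate 3 (adjusted p = 0.0144) and the value within the 7 libraries was 0.59. The ZJDC call of Zeb2 was lost without PBSDC replicate 2 or 3 or ZJDC replicate 1 or 2 (0.0542 to 0.0680).

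**Figure D4:**
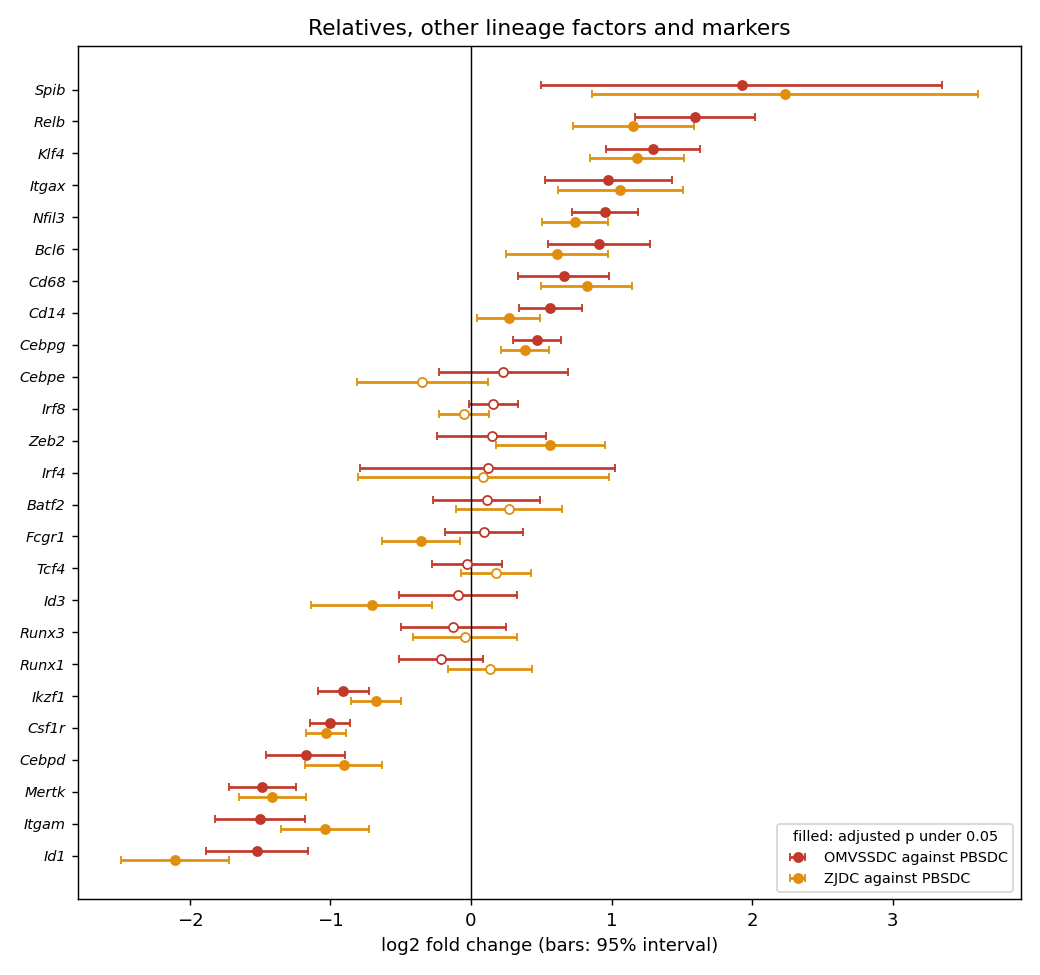
Log2 fold changes against PBSDC, with 95% intervals, of 25 tested genes from a panel of relatives, other lineage factors and markers; filled points have an adjusted p under 0.05. Of those shown, 9 rose and 6 fell in OMVSSDC, and 10 rose and 8 fell in ZJDC, with Spib and Relb among the highest and Id1 the lowest. Of all tested genes 63.6% were called in OMVSSDC and 54.7% in ZJDC.

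Of 25 markers of the macrophage and monocyte lineage 17 were tested, and 11 of them fell in each comparison with PBSDC. In OMVSSDC 3 rose and 11 fell, with a median log2 fold change of -0.94, beside 30.2% of all genes that were lower and a median of 0.05. In ZJDC 4 rose and 11 fell, with a median of -0.84, beside 27.1% of all genes that were lower and a median of 0.01. Without any 1 of the PBSDC or ZJDC libraries 2 rose. Csf1r, the receptor of the macrophage growth factor, had 564 ± 35.0 CPM in OMVSSDC and 554 ± 12.6 CPM in ZJDC, against 1131 ± 39.3 CPM in PBSDC. Its log2 fold changes were -1.003 and -1.03 (adjusted p = 5.94e-07 and 8.10e-07). Itgam, which encodes CD11b, fell by 1.502 in OMVSSDC and fell by 1.04 in ZJDC, and Mertk, a receptor for dying cells, by 1.48 and 1.41. C5ar1, a complement receptor, fell by 1.35 in OMVSSDC and fell by 0.83 in ZJDC, and Cx3cr1, the fractalkine receptor, fell by 3.84 in OMVSSDC and fell by 3.69 in ZJDC.

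The macrophage markers that rose were few. Cd68, a lysosomal protein of phagocytes, rose by 0.66 in OMVSSDC (0.42 without OMVSSDC replicate 3 and 1.04 in the 7 libraries) and 0.82 in ZJDC. Gpnmb, a transmembrane glycoprotein of phagocytes, rose by 1.90 in OMVSSDC and 2.04 in ZJDC, with 189.9 CPM in OMVSSDC and 209 CPM in ZJDC, against 50.7 CPM in PBSDC. Cd14, the co-receptor for lipopolysaccharide, rose by 0.57 in OMVSSDC (adjusted p = 0.000681, 0.30 in the 7 libraries) and by 0.27 in ZJDC (adjusted p = 0.0436), the last lost without any 1 of the PBSDC or ZJDC libraries (0.0688 to 0.146). Fcgr1, which encodes CD64, had 0.09 in OMVSSDC (adjusted p = 0.530). Without OMVSSDC replicate 3 that value was 0.24 (adjusted p = 0.000161), and in the 7 libraries it was -0.27. Fcgr1 fell by 0.36 in ZJDC (adjusted p = 0.0323), a call lost in 7 settings, 5 of them leaving out PBSDC replicate 1, 2 or 3 or ZJDC replicate 1 or 2. Between OMVSSDC and ZJDC, C5ar1 was lower by 0.51 (adjusted p = 0.0281) and the scavenger receptor gene Marco by 0.47 (adjusted p = 0.0482), both lost without any 1 library other than OMVSSDC replicate 3 (adjusted p from 0.0707 to 0.210), and in the 7 libraries -0.34 and -0.25.

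**Figure D5:**
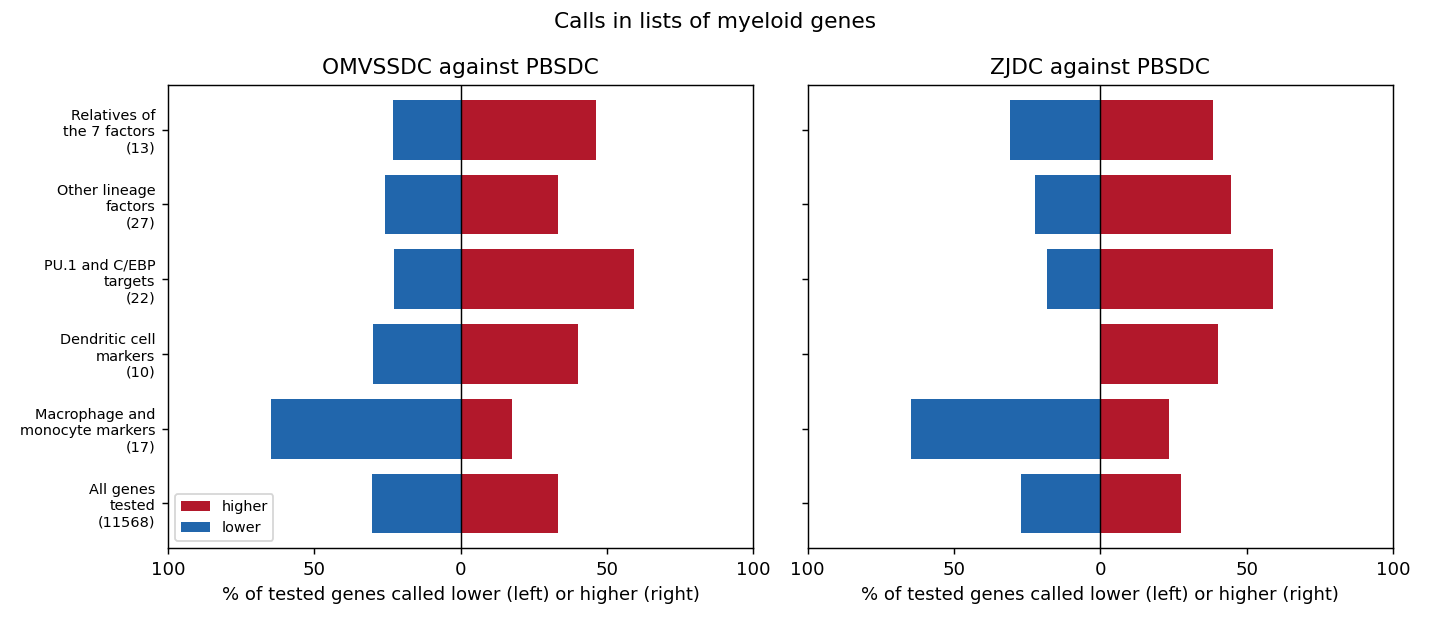
Share of the tested genes of 5 lists, and of all tested genes, called higher (right) or lower (left) against PBSDC at an adjusted p under 0.05; the number tested is in brackets. The macrophage and monocyte list has 11 of 17 genes lower in both comparisons, beside 30.2% and 27.1% of all genes.

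Dendritic cell markers were mostly too scarce to test, although the labels call the line dendritic. Of 30 such genes 10 were tested. Flt3, the growth factor receptor of dendritic cell precursors, had 0 to 4 counts a library, and Clec9a, Xcr1, Siglech, Ciita and Ccr7 had no more than 10 counts in any library. Of all tested genes 63.6% were called in OMVSSDC and 54.7% in ZJDC, so calls among these 10 are not particular to dendritic cell markers. In OMVSSDC 4 rose and 3 fell. In ZJDC 4 rose and 0 fell by edgeR, with 1 lower at an unadjusted p under 0.05, and 1 fell by DESeq2 and 2 in the fit of these 2 groups only, without OMVSSDC replicate 3, or when only that OMVSSDC library was kept. Itgax, which encodes CD11c, had 4.06 ± 0.726 CPM in OMVSSDC and 4.30 ± 0.381 CPM in ZJDC, against 2.04 ± 0.333 CPM in PBSDC, and rose by 0.98 and 1.06 (adjusted p = 0.00182 and 0.00130). Cd74, the class II invariant chain, rose by 0.85 and 0.84, and the lectin gene Clec10a by 1.69 and 1.24. The class II genes H2-Aa, H2-Ab1 and H2-Eb1 were below the filter, with at most 7 counts in any library. Bst2 rose by 1.92 in OMVSSDC and 0.80 in ZJDC, with 352 and 162 CPM, against 93.2 CPM in PBSDC. The markers that fell in OMVSSDC, named here after their values were seen, were Cadm1 (-0.36, adjusted p = 0.00482), the RNA sensor gene Tlr3 (-0.47, adjusted p = 0.0320) and Mgl2 (-0.57, adjusted p = 0.00720). In ZJDC these had -0.17, 0.01 and -0.30 and did not pass (adjusted p = 0.126, 0.947 and 0.104). The abundant Sirpa, with 1443 CPM in OMVSSDC and 1558 CPM in ZJDC, against 1522 CPM in PBSDC, and Wdfy4, with 184 and 180.0 CPM against 204 CPM, did not pass in either comparison (adjusted p from 0.0756 to 0.652).

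Of 25 genes known as targets of PU.1 or C/EBP factors in myeloid cells, 22 were tested. In OMVSSDC 13 rose and 5 fell (median 0.24), and in ZJDC 13 rose and 4 fell (median 0.26). The share called was 81.8% in OMVSSDC and 77.3% in ZJDC, beside 63.6% and 54.7% of all tested genes. Lcn2, an iron-sequestering protein, had 3419 CPM in OMVSSDC and 2939 CPM in ZJDC, against 547 CPM in PBSDC. Il6 rose by 3.59 and 3.68. Csf1r, also on this list, fell.

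Most markers of other cell types were scarce, but a few, among them Csf3r, Mmp9 and Pf4, were well counted. Granulocyte markers summed to 160.5 to 174 CPM in OMVSSDC and 164 to 174 CPM in ZJDC, against 194 to 222 CPM in PBSDC. The receptor gene Csf3r led them in OMVSSDC (84.8 CPM) and ZJDC (94.2 CPM), and the protease gene Mmp9 in PBSDC (149 CPM). Of 4 tested 1 rose and 2 fell in each comparison with PBSDC, beside 63.6% of all tested genes called in OMVSSDC and 54.7% in ZJDC. Lymphoid markers summed to 17.2 to 20.7 CPM in OMVSSDC and 15.9 to 20.01 CPM in ZJDC, against 11.1 to 13.4 CPM in PBSDC. Lck led them, and Cd3e, Cd3g, Cd8a, Ncr1, Klrb1c and Nkg7 had 0 counts in all libraries. Erythroid and megakaryocyte markers summed to 46.6 to 90.4 CPM in OMVSSDC and 48.3 to 66.6 CPM in ZJDC, against 104 to 106 CPM in PBSDC, nearly all of it Pf4, a chemokine gene. Fibroblast, endothelial and epithelial markers summed to 10.5 to 32.9, 16.6 to 23.6 and 27.8 to 33.4 CPM in OMVSSDC, ZJDC and PBSDC. The source of these counts and their part in the values of the 9 genes were not tested.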

How the data were processed

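RNA from DC2.4 cells was sequenced in 9 libraries, 3 per group, grouped by sample title. Per the submitters' processing notes, the tools were fastp 0.22.0, HISAT2 2.1.0 and HTSeq 0.9.1; the build and annotation were not named. The deposited table holds read counts per gene, made by the authors without normalization, and FPKM values, which the authors scaled by gene length and library total. FPKM served only to compare levels between genes.

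Counts were fitted in R 4.3.3 with edgeR 4.0.16 (quasi-likelihood F-test, two-sided, TMM, robust) on all 9 libraries, with group as factor and 6 residual degrees of freedom. The filter (minimum count 10, minimum total 15) left 11568 of 21959 genes, over which p-values were Benjamini-Hochberg adjusted at a threshold of 0.05. The pipeline was tested on simulated data. Alternatives used DESeq2 1.42.0, limma 3.58.1 (voom), other scalings and filters, a replicate block, fits of 1 pair of groups, and fits without 1 library.

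The genes and lists were chosen with earlier results of these data known. Named are the 9 genes, a panel of 31 and up to 3 genes per list and comparison with the smallest adjusted p and a mean of at least 5 CPM. Promoter sequences are from RefSeq, GRCm38.p6. Of the panel, 1 gene is not reported here.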

Additional observations from a re-analysis of the deposited data

How the results depend on the processing

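Over the alternatives, 456 of 486 values of the 9 genes kept their side of the threshold, 16 passed only under the alternative and 14 no longer passed. The sign differed for 11 values, none of which passed (0 of 11). Spi1, Id2, Zbtb46, Maf, Lyz2 and Adgre1 passed in 18 of 18 alternatives in both comparisons with PBSDC, and Batf3 in 17 of 18 in OMVSSDC. In the 7 libraries the log2 fold changes in OMVSSDC against PBSDC were -0.49 for Spi1, 1.55 for Id2 and 0.97 for Zbtb46. They were -2.07 for Maf and -1.66 for Lyz2. Library size alone gave a median of all genes in OMVSSDC against PBSDC of 0.18, against 0.05 with TMM. Same-numbered libraries did not deviate together (9 pairs, r from -0.388 to 0.0887). Differently numbered libraries had r from -0.199 to 0.326, the highest between OMVSSDC replicate 1 and ZJDC replicate 3. Deviations were taken from means of 3 libraries, so these values cannot exclude that the numbers pair them. With the replicate block, OMVSSDC against ZJDC had 0 genes higher and 0 lower, and Cebpb in ZJDC against PBSDC had 0.40 (adjusted p = 0.0559).

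OMVSSDC against ZJDC was the comparison that moved, with 99 genes higher and 127 lower in the reported fit. Only the 2 groups gave 0 higher and 0 lower, DESeq2 749 and 835, and the 7 libraries 214 lower. Of the 9 genes, 1 was higher with no filter, 1 by DESeq2 and 1 in the 7 libraries. Leaving out 1 library gave 0 to 3243 genes higher and 0 to 3296 lower, and 0 to 5 of the 9 higher and 0 to 2 lower, the highest each time without OMVSSDC replicate 3. The cause was not tested.

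Signs turned for Zeb2 in OMVSSDC against PBSDC (-0.15 without OMVSSDC replicate 3 and up to 0.27 without another library) and, in the 7 libraries, for Tcf4 (0.23) and Fcgr1 (-0.27) in OMVSSDC against PBSDC and Cd68 in OMVSSDC against ZJDC (0.21). The cause was not tested. Depth limits Batf3 and Zbtb46 most, at 35 to 167 counts a library.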

Other observations

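The genes whose log2 CPM followed each of the 9 most closely over the 9 libraries, among 9500 candidates, are given as a description, since the libraries fall into groups and share depth and scaling. Maf was followed most closely by Pdia3 (Pearson r = 0.998), Lyz2 by Cyth4 (0.998), Adgre1 by Mfn1 (0.999), Id2 by Garem1 (0.998) and Spi1 by Gpatch4 (0.997). The closest genes were less close for Zbtb46 (Dgat2, 0.991), Batf3 (Ccdc124, 0.982), Cebpa (Pgls, 0.966) and Cebpb (Lrrc8a, 0.934).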
